A study of Mus musculus with 38 samples.

Results

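The genes described are 7 members of the MHC class II presentation pathway, Cd74, H2-Aa, H2-Ab1, H2-Eb1, H2-DMa, H2-DMb1 and Ciita, taken by gene symbol from the 25746 genes of the deposited expression tables, which list all 7. The study profiled Tcf21 lineage cells, a progenitor lineage of mouse visceral adipose tissue marked by the transcription factor Tcf21, with 29 libraries of RNA-seq and 9 of ATAC-seq, each made from 5000 sorted cells. For RNA-seq, 5 libraries came from Tcf21 knockout (KO) cells of mice 3 weeks old (3W), 2 from KO cells after a 1 week high-fat diet begun at 6 weeks of age (1W HFD) and 2 from KO cells after 12 weeks of that diet (12W HFD). Wild-type (WT) cells gave 2 libraries at postnatal day 12 (P12), 7 at 3W, 4 at 1W HFD, 5 at 12W HFD and 2 at 6 months of age (6M), and mice at P12, 3W and 6M had regular diet. For ATAC-seq there were 2 KO libraries at 3W and 3, 2 and 2 WT libraries at 3W, 1W HFD and 12W HFD. All groups share tamoxifen, given to activate MerCreMer, an inducible Cre recombinase, at 75 mg/kg per day by gavage in adults, pregnant females included, or by intragastric injection of 100 µg per day in neonates. The sources used here say neither at what age each group was dosed nor whether libraries of a group come from separate animals, so p-values measure the spread between libraries. The WT label does not say which alleles these mice carry.

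MHC class II molecules are heterodimers of an alpha and a beta chain that carry peptides from endosomes to the cell surface, where CD4 T cells read them. The invariant chain Cd74 holds new class II dimers and blocks their groove until proteases of the endosome trim it away. H2-DM, made of H2-DMa and H2-DMb1 or H2-DMb2, then exchanges the remaining fragment for a peptide, and Ciita is the coactivator that switches the whole set on through a shared promoter module. The pathway is best known in dendritic cells, macrophages and B cells, and interferon gamma can turn it on in other cells, fibroblasts and adipocytes among them.

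Of the 7 genes, 5 lie together in the MHC on mouse build mm10: H2-DMa (ENSMUSG00000037649) at chr17:34119541-34139101, H2-DMb1 (ENSMUSG00000079547) at chr17:34153072-34160230, H2-Ab1 (ENSMUSG00000073421) at chr17:34257689-34269419, H2-Aa (ENSMUSG00000036594) at chr17:34282744-34287823 and H2-Eb1 (ENSMUSG00000060586) at chr17:34305867-34316674.

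The class II promoter module holds an X box, bound by the RFX complex, and a Y box, an inverted CCAAT bound by NF-Y, to which Ciita is recruited. RefSeq promoter sequences (GRCm38.p6) were matched for 4 of the 7 genes, H2-Aa, H2-Eb1, H2-DMa and H2-DMb1. Promoters of 3 of these held GNAAC, the X box core with 1 free base, followed on the same strand by ATTGG, the inverted CCAAT, with 26 to 30 bases between them. These stretches are printed to show the shared spacing, with both cores in capitals. H2-Aa is from the minus strand of chr17:34287857-34287916, H2-Eb1 from the plus strand of chr17:34305764-34305822 and H2-DMb1 from the plus strand of chr17:34153085-34153144.
H2-Aa: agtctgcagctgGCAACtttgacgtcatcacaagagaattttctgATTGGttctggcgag
H2-Eb1: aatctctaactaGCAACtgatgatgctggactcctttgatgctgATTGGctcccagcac
H2-DMb1: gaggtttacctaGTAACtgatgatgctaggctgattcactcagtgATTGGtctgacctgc
The gap between the cores was 28 bases in H2-Aa, 27 in H2-Eb1 and 28 in H2-DMb1, and the X box core began 81 bases before the gene start in H2-Aa, 91 in H2-Eb1 and 94 in H2-DMb1. The paired pattern, on either strand, was found in 0.886% of 32851 mouse promoters of the same 300 base length. The single cores were common: CCAAT was found in 37.4% of those promoters, GCAAC in 35.2% and GNAAC in 84.8%, on either strand. GNAAC and the spacing were chosen after these sequences had been seen, and a match is a description of letters only. The 2 H2-DMa promoters held no paired match in their 300 bases.

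The RNA values are TPM per gene, an abundance scaled by gene length and within each library. The libraries held 10894 to 12825 genes at 1 TPM or more, and TPM keeps no read depth, so the depth is unknown and no counting interval is given. Tcf21 averaged 35.2 ± 18.3 TPM in KO 3W libraries and 64.9 ± 26.98 TPM in WT 3W libraries (SD, n = 5 and 7), 12.3 ± 5.9 in KO 1W HFD and 23.1 ± 16.7 in WT 1W HFD libraries (n = 2 and 4), and 3.66 ± 2.85 in KO 12W HFD and 9.37 ± 2.98 in WT 12W HFD libraries (n = 2 and 5). The KO and WT values of Tcf21 overlapped at 3W and 1W HFD and did not at 12W HFD. The genotype field of the labels differed from the sample title in 22 of 38 samples, and titles were used. Pdgfra, the gene of a surface receptor of adipose progenitors, was between 63.9 and 188 TPM in all libraries. Some other fibroblast markers were lower in WT 12W HFD than in WT 3W libraries. Col1a1 averaged 665 and 2644 TPM in these groups, and Cd34 622 and 1227 TPM. Most of the 10 lineage and fibroblast markers were not called lower in that comparison. H2-DMb1 and H2-DMb2 are close paralogs whose reads may have been shared, H2-DMa overlaps Brd2 by 3094 bases and Ciita overlaps Dexi by 25888 bases. It is not stated whether reads were counted by strand, so the values of these genes are uncertain.

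Cd74 (ENSMUSG00000024610) lies at chr18:60803848-60812652 and Ciita (ENSMUSG00000022504) at chr16:10480059-10528418, both mm10. Cd74, the invariant chain, had the highest median of the 7 genes in each of the 8 groups. It had 68.8 and 73.7 TPM in the WT P12 libraries. In KO 3W libraries it had 374, 93.8, 32.1, 149 and 144 TPM, against a lowest value of 3.68, a median of 36.7 and a highest value of 112 TPM in the 7 WT 3W libraries. In KO 1W HFD libraries it had 748 and 492 TPM, against 339, 421, 411 and 510.3 TPM in WT 1W HFD libraries. The libraries of both genotypes after 1 week of diet lay above every 3W library of their own genotype. In KO 12W HFD libraries Cd74 had 1187 and 674 TPM, against 1861, 7444, 6815, 1969 and 1286 TPM in WT 12W HFD libraries, and the WT 6M libraries had 4028 and 1840.3 TPM. WT 12W HFD replicates 2 and 3 stood far above the other 3 libraries of their group in Cd74, and the same 2 libraries were the highest of the group for each of the 7 genes. By group median the order of Cd74 levels was WT 3W (36.7 TPM), WT P12 (71.3), KO 3W (144), WT 1W HFD (416), KO 1W HFD (620.0), KO 12W HFD (930.3), WT 12W HFD (1969) and WT 6M (2934). Of neighbouring groups in that order only KO 12W HFD and WT 12W HFD had ranges that did not overlap.

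The classical chains H2-Aa (alpha chain of I-A), H2-Ab1 (beta chain of I-A) and H2-Eb1 (beta chain of I-E) were also lowest in WT 3W and highest in WT 12W HFD or WT 6M libraries. In the WT groups, median H2-Ab1 was 34.6 TPM at P12, 10.4 at 3W, 135 at 1W HFD, 681 at 12W HFD and 988 at 6M. Median H2-Aa in those groups was 26.4, 7.21, 87.2, 465 and 418 TPM, and median H2-Eb1 was 22.6, 8.42, 81.1 and 335 TPM in the first 4 of them, with 319 and 183 TPM in the WT 6M libraries. H2-Ab1 was thus highest at 6M by median, and H2-Aa and H2-Eb1 at 12W HFD. H2-Aa was 0.564 to 0.705 of H2-Ab1 in the 4 WT 1W HFD libraries and 0.420 to 0.683 of it in the 5 WT 12W HFD libraries. Cd74 made up 51.5% to 58.0% of the summed TPM of the 7 genes in the WT 1W HFD libraries, 55.4% to 62.1% in the WT 12W HFD libraries and 33.9% to 59.1% in the WT 3W libraries. H2-Ea-ps, the pseudogene of the I-E alpha chain, was listed at 0 in all but WT 12W HFD replicate 5 (0.59 TPM).

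H2-DMa and H2-DMb1, the chains of the peptide editor H2-DM, had lower medians than each of the classical chains in every WT group. H2-DMa medians were 3.32 TPM in WT P12, 4.09 in WT 3W, 11.9 in WT 1W HFD, 43.7 in WT 12W HFD and 48.9 in WT 6M libraries. H2-DMb1 medians were 1.30, 4.18, 8.98, 78.1 and 45.1 TPM in the same groups. Its paralog H2-DMb2 was lower, with a median of 7.62 TPM in WT 12W HFD libraries and 0.71 TPM or less in every WT library at 1W HFD and 3W.

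Ciita, the coactivator, was the lowest of the 7 genes by median in all 8 groups. In KO 3W libraries it was listed at 0, 0.05, 0.71, 0.04 and 0.69 TPM, and in the 7 WT 3W libraries it lay between 0 and 0.55 TPM with a median of 0.02. It had 0.09 and 0.50 TPM in KO 1W HFD libraries, against 0.73, 0.33, 1.81 and 0.91 TPM in WT 1W HFD libraries. It had 0.70 and 0.08 TPM in KO 12W HFD libraries, against 0.28, 3.32, 3.09, 1.12 and 0.68 TPM in WT 12W HFD libraries. The highest 2 values were those of the WT 12W HFD libraries with the most Cd74, while the WT 6M libraries had 0.78 and 0.03 TPM beside Cd74 at 4028 and 1840.3 TPM.

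**Figure D1:**
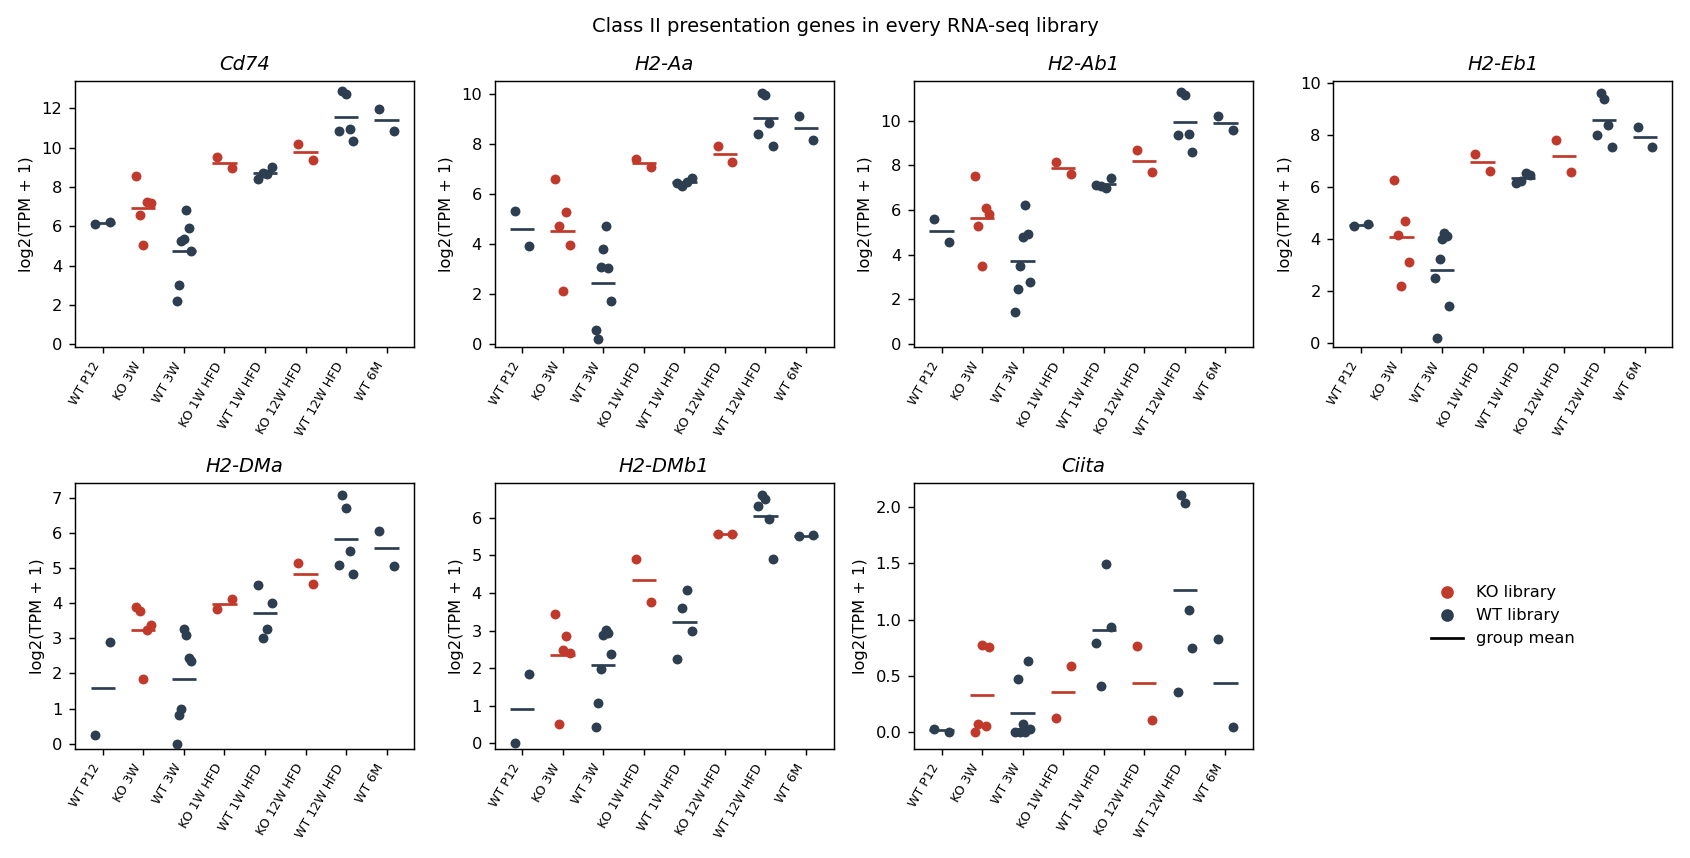
Level of each gene as log2(TPM + 1) (y axis, its own scale in each panel) in every library of the 8 RNA-seq groups (x axis), KO libraries in red and WT libraries in dark blue, with a bar at the group mean of the log values. Cd74 and the classical chains lie lowest in WT 3W libraries (Cd74 median 36.7 TPM) and highest in WT 12W HFD and WT 6M libraries (medians 1969 and 2934 TPM), and Ciita reaches at most 3.32 TPM.

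In WT cells all 7 genes were higher after 12 weeks of high-fat diet than at 3 weeks. Cd74 averaged 3875 ± 2990 TPM in WT 12W HFD libraries and 40.6 ± 36.7 TPM in WT 3W libraries (SD, n = 5 and 7), a log2 change of 6.79 ± 0.60 (SE; limma on log2(TPM + 1), adjusted p = 1.97e-09). H2-Aa averaged 619 ± 378 TPM in WT 12W HFD and 7.90 ± 8.80 TPM in WT 3W libraries (log2 change 6.61 ± 0.65), and H2-Ab1 1302 ± 1007 and 21.8 ± 25.6 TPM (6.23 ± 0.64). H2-Eb1 changed by 5.77 ± 0.60, H2-DMa by 3.99 ± 0.54 and H2-DMb1 by 3.96 ± 0.49 on the log2 scale. For these 6 genes every WT 12W HFD library was above every WT 3W library. Ciita was called as well (log2 change 1.09 ± 0.28, adjusted p = 0.00761), but its groups overlapped. The share of all 15659 tested genes that passed the threshold, an adjusted p under 0.05, was 14.2% in this comparison and 7.94% for higher genes alone. With WT 12W HFD replicates 2 and 3 left out together, an alternative chosen after seeing the data, 6 of the 7 genes were called, Cd74 with a log2 change of 5.95 ± 0.67, and Ciita was not (0.56 ± 0.28, adjusted p = 0.253). Diet and age both differ between these groups and cannot be told apart here, and in bulk RNA more cells of a type cannot be told apart from more RNA per cell.

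In WT cells at 6 months on regular diet, 6 of the 7 genes were higher than at 3 weeks, against 10.8% of all genes called in either direction and 4% called higher. Cd74 averaged 2934 ± 1547 TPM in WT 6M and 40.6 ± 36.7 TPM in WT 3W libraries (SD, n = 2 and 7; log2 change 6.65 ± 0.83, limma adjusted p = 5.05e-06). H2-Aa changed by 6.20 ± 0.89, H2-Ab1 by 6.19 ± 0.88, H2-Eb1 by 5.11 ± 0.82, H2-DMa by 3.71 ± 0.74 and H2-DMb1 by 3.43 ± 0.67 on the log2 scale, and both WT 6M libraries were above all 7 WT 3W libraries for each of these. Ciita was not called (0.27 ± 0.39, adjusted p = 0.724). The median of all genes was -0.24 in this comparison and -0.03 after median-ratio scaling, and the same 6 genes were called under both. Ighm, the mu heavy chain gene of B cells, was at 9839.8 TPM in WT 6M replicate 1 and at 29.03 TPM in replicate 2. Without replicate 1, 5 of the 7 genes were called, and H2-DMa was not (3.21, adjusted p = 0.0592).

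After 1 week of diet, 5 of the 7 genes were higher than in WT 3W cells, against 8.03% of all genes called in either direction and 4.78% called higher. Cd74 averaged 420.4 ± 70.1 TPM in WT 1W HFD and 40.6 ± 36.7 TPM in WT 3W libraries (SD, n = 4 and 7; log2 change 3.94 ± 0.65, limma adjusted p = 0.000381). H2-Aa changed by 4.04 ± 0.70, H2-Ab1 by 3.43 ± 0.68 and H2-Eb1 by 3.54 ± 0.64, each with no overlap between the groups. H2-DMa was near the threshold (1.86 ± 0.58, adjusted p = 0.0440), its groups overlapped, and it was lost when any of several single libraries was left out (WT 3W replicate 1, 2 or 3, or WT 1W HFD replicate 1, 3 or 4; adjusted p 0.0714 to 0.142). H2-DMb1 (1.13 ± 0.52, adjusted p = 0.198) and Ciita (0.73 ± 0.30, adjusted p = 0.144) did not pass. Age differs along with diet between WT 1W HFD and WT 3W mice, and diet and age cannot be told apart here.

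From 1 to 12 weeks of diet, 5 of the 7 genes were higher again in WT cells, against 5.93% of all genes called in either direction and 3.54% called higher. Cd74 changed by 2.84 ± 0.69 between WT 12W HFD and WT 1W HFD libraries (limma adjusted p = 0.00983), H2-Ab1 by 2.81 ± 0.73, H2-Aa by 2.57 ± 0.74, H2-DMa by 2.13 ± 0.62 and H2-DMb1 by 2.83 ± 0.56. H2-Eb1 was just past the threshold on the other side (2.23 ± 0.69, adjusted p = 0.0508). These calls leaned on WT 12W HFD replicates 2 and 3. Without replicate 2 or without replicate 3, 2 genes were called, Cd74 and H2-DMb1. Without both, 1 gene was called, H2-DMb1 (2.495 ± 0.65, adjusted p = 0.0242), and Cd74 had a log2 change of 2.01 ± 0.74 (adjusted p = 0.176). Leaving out WT 1W HFD replicate 2, 3 or 4 left 3 genes called. Time on diet and age both differ between WT 1W HFD and WT 12W HFD mice and cannot be told apart.

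Between WT 12W HFD and WT 6M libraries none of the 7 genes was called (limma), with 0.881% of all genes called and 2189 genes at an unadjusted p under 0.05. The diet began at 6 weeks of age, so these groups differ in age as well as in diet and 6M is no age-matched control. Cd74 averaged 3875 ± 2990 TPM in WT 12W HFD and 2934 ± 1547 TPM in WT 6M libraries (SD, n = 5 and 2; log2 change 0.14 ± 0.86). Ciita had the lowest adjusted p of the 7 there (log2 change 0.83 ± 0.41, limma adjusted p = 0.358). Between WT 3W and WT P12 libraries none was called either, with 1.63% of all genes called (0.626% higher) and 2228 genes at an unadjusted p under 0.05. Cd74 had 40.6 ± 36.7 TPM in WT 3W and 71.3 ± 3.5 TPM in WT P12 libraries (SD, n = 7 and 2; log2 change -1.41 ± 0.83, adjusted p = 0.454), and H2-Aa had the change with the lowest adjusted p (-2.18 ± 0.89, adjusted p = 0.246).

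**Figure D2:**
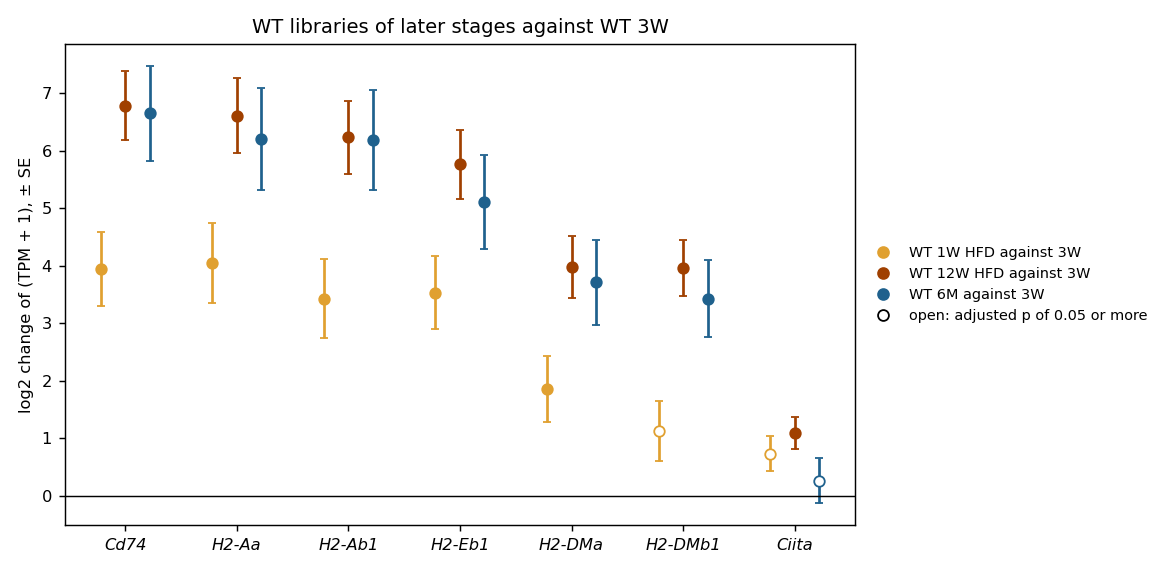
Log2 change of (TPM + 1) with its SE from limma (y axis) for each gene (x axis) in WT libraries of 1W HFD, 12W HFD and 6M, each against WT 3W. Filled points passed an adjusted p of 0.05. The 12W HFD and 6M changes of Cd74 (6.79 and 6.65) lie close together, and Ciita passed at 12W HFD only. The 3 comparisons share the WT 3W libraries, and the 12W HFD and 6M mice differ in both diet and age.

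In KO cells Cd74, H2-Eb1 and H2-DMb1 were higher at 12 weeks of diet than at 3 weeks of age, and the other 4 genes did not pass the threshold. As in WT cells, diet and age both differ between the stages and cannot be told apart. Cd74 averaged 930.3 ± 363 TPM in KO 12W HFD and 159 ± 130 TPM in KO 3W libraries (SD, n = 2 and 5; log2 change 2.89 ± 0.86, limma adjusted p = 0.0459). The change was 3.12 ± 0.86 for H2-Eb1 (adjusted p = 0.0267) and 3.24 ± 0.69 for H2-DMb1 (adjusted p = 0.00328). The 3 calls of 7 compare with 5.15% of all genes in either direction and 3.19% for higher genes. H2-Aa was at the threshold (3.07 ± 0.93, adjusted p = 0.0505), and H2-Ab1 (2.55 ± 0.91, adjusted p = 0.119) and H2-DMa (1.61 ± 0.77, adjusted p = 0.307) did not pass. Leaving out single libraries gave between 0 calls (without KO 12W HFD replicate 2) and 5 calls (without KO 3W replicate 1). Calls fell to 2 without KO 3W replicate 2 or 4 and to 1 without KO 3W replicate 3 or 5 or KO 12W HFD replicate 1. Between KO 1W HFD and KO 3W libraries none of the 7 was called (Cd74 2.33 ± 0.86, limma adjusted p = 0.238), with 0.862% of all genes called and 1800 genes at an unadjusted p under 0.05. Between KO 12W HFD and KO 1W HFD libraries none was called (Cd74 0.56 ± 1.03, adjusted p = 1), with 0.76% of all genes called and 1245 genes at an unadjusted p under 0.05.

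Within a stage, none of the 7 class II genes passed the limma test between KO and WT cells, and few genes of any kind did: 0% of all tested genes at 3W, 0.0255% at 1W HFD and 0.00639% at 12W HFD. At an unadjusted p under 0.05 there were 546, 540 and 570 genes at these stages. At 3W the KO libraries had the higher mean for all 7 genes. Cd74 averaged 159 ± 130 TPM in KO 3W and 40.6 ± 36.7 TPM in WT 3W libraries (SD, n = 5 and 7; log2 change 2.16 ± 0.60, unadjusted p = 0.00130, adjusted p = 1), H2-Aa 35.5 ± 36.6 and 7.90 ± 8.80 TPM (2.10 ± 0.65), and H2-DMa averaged 9.38 and 3.74 TPM (1.38 ± 0.54). KO 3W replicate 1 had the highest value of all 3W libraries for 6 of the 7 genes, the exception being Ciita, and KO 3W replicates 2 and 3 lay inside the WT 3W range for Cd74. The 2 groups overlapped for each of the 7 genes. KO 3W replicate 1 also had the highest macrophage marker sum at 3W (362 TPM, against 67.6 to 159 TPM in WT 3W libraries), and the part of these cells in the difference was not tested.

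At 1W HFD, Cd74 averaged 620 ± 181 TPM in KO and 420.4 ± 70.1 TPM in WT libraries (SD, n = 2 and 4; log2 change 0.54 ± 0.89, limma adjusted p = 1). Both KO libraries were above all 4 WT libraries for H2-Aa (168 and 133 TPM, against 79.5 to 98.3 TPM), H2-Ab1 (283 and 193 TPM, against 126 to 174 TPM) and H2-Eb1 (154 and 97.2 TPM, against 70.2 to 92.5 TPM). The sum of 20 macrophage markers was also higher in both KO libraries (594.9 and 925.9 TPM, against 338.8 to 495.9 TPM). Of 9 mesothelial markers tested, 1 was called higher in KO, Lrrn4 (limma adjusted p = 0.00023). It averaged 5.61 TPM in KO libraries and was at 0 TPM in each WT library. The sum of 10 was 181 and 94.8 TPM in KO and 80.3 to 122.5 TPM in WT libraries. Much of that sum was Wt1, which averaged 72.96 TPM in KO and 88.9 TPM in WT libraries. The other markers tested had higher means in KO. The mean log2(TPM + 1) of the 10 was 1.67 to 3.42 in KO and 0.743 to 1.32 in WT libraries. The part of these cells in the difference was not tested. At 12W HFD the direction of the means was the opposite, with KO lower for all 7 genes. Cd74 averaged 930.3 ± 363 TPM in KO and 3875 ± 2990 TPM in WT libraries (SD, n = 2 and 5; log2 change -1.74 ± 0.86, unadjusted p = 0.0530, limma adjusted p = 1), and H2-Aa 198 ± 61.1 and 619 ± 378 TPM (-1.44 ± 0.93). For Cd74 and H2-Aa both KO libraries were below all 5 WT libraries, and for the others the groups overlapped. Without WT 12W HFD replicates 2 and 3 the Cd74 change was -0.91 ± 0.88, the H2-Aa change -0.80 and the H2-Ab1 change -0.94. The change of the KO effect between 12W HFD and 3W was -3.90 ± 1.05 for Cd74, -3.69 ± 1.12 for H2-Ab1 and -3.55 ± 1.13 for H2-Aa (limma interaction, adjusted p = 1 for each, with 0% of all genes called and 419 genes at an unadjusted p under 0.05). None of the 7 was called for the KO effect between 1W HFD and 3W (0.00639% of all genes) or between 12W HFD and 1W HFD (0.0128%).

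**Figure D3:**
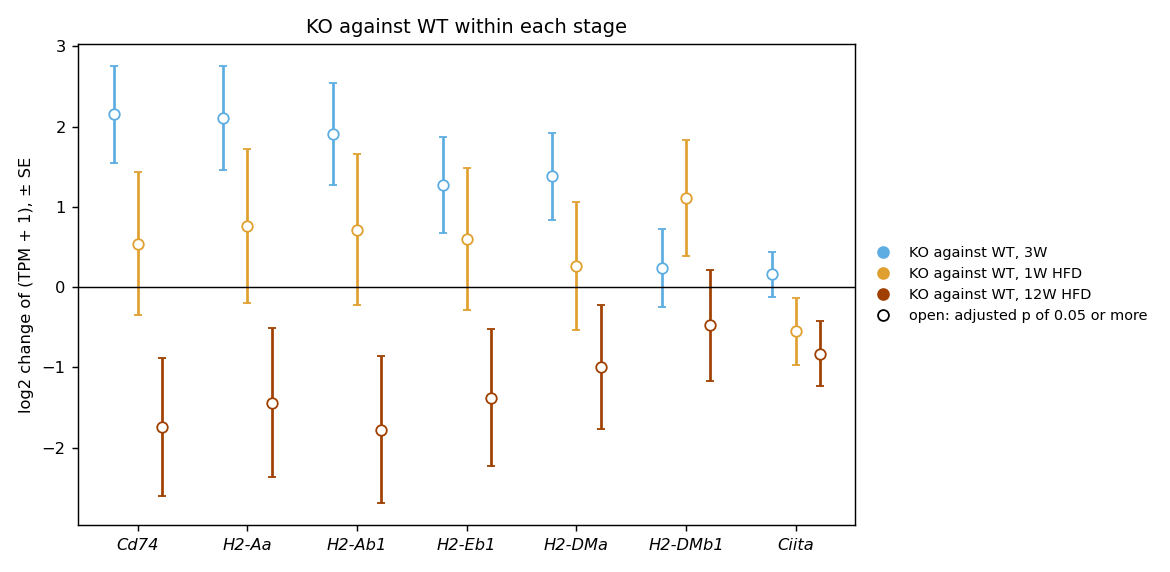
Log2 change of (TPM + 1) with its SE from limma (y axis) for each gene (x axis), KO against WT at 3W, 1W HFD and 12W HFD. All points are open, since none passed an adjusted p of 0.05. Cd74 is at 2.16 at 3W, 0.54 at 1W HFD and -1.74 at 12W HFD.

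In WT cells the macrophage marker sum and the class II sum were both lowest at 3W by median, and higher at 1W HFD, 12W HFD and 6M. The sum of 20 macrophage markers was 338.8 to 496 TPM in WT 1W HFD and 2699 to 5540 TPM in WT 12W HFD libraries. It was 1411 to 3951 TPM in WT 6M and 67.6 to 159 TPM in WT 3W libraries. In KO cells the median macrophage sum was 116.9 TPM at 3W, 760.4 TPM at 1W HFD and 3846 TPM at 12W HFD. The median class II sum in these KO groups was 236.5, 1170 and 1670 TPM. Of the 20 markers, 12 were called higher in WT 1W HFD, 15 in WT 12W HFD and 16 in WT 6M than in WT 3W libraries. Of all genes tested, 4.78%, 7.94% and 4% were called higher in these comparisons. In KO 12W HFD against KO 3W libraries 13 markers were called higher, against 3.19% of all genes. In KO against WT 0 markers were called higher at any stage. The general macrophage gene Adgre1 (F4/80) averaged 87.8 ± 44.5 TPM in WT 12W HFD and 0.24 ± 0.28 TPM in WT 3W libraries (SD, n = 5 and 7; log2 change 6.06 ± 0.43), and Ptprc (CD45), a gene of all leukocytes, 39.0 ± 12.7 and 0.55 ± 0.39 TPM (4.65 ± 0.36). The part of macrophages in the class II levels was not tested.

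The class II and macrophage sums did not keep a fixed ratio. Over the WT 12W HFD libraries the class II sum was 0.642 to 3.56 times the macrophage sum, the 2 high values being replicate 2 (3.56) and replicate 3 (2.43), and the other 3 lay between 0.642 and 0.797 times. In the KO 12W HFD libraries the ratio was 1.07 and 0.211. KO 12W HFD replicate 2 had a macrophage sum of 5687 TPM, the highest of all 29 libraries, beside a class II sum of 1198 TPM, below all WT 12W HFD libraries (2151 to 12000 TPM). In WT 3W libraries the ratio ran from 0.139 to 1.53.

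**Figure D4:**
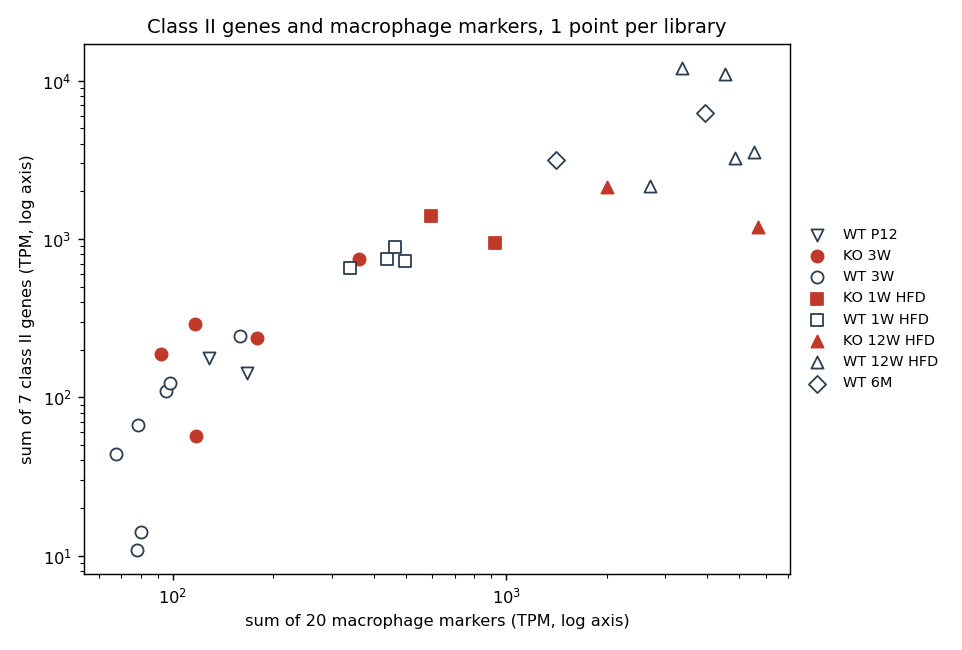
Summed TPM of the 7 class II genes (y axis, log) against summed TPM of 20 macrophage markers (x axis, log), 1 point per RNA-seq library, KO filled and WT open. The lowest class II sum is that of a WT 3W library (10.86 TPM), KO 3W replicate 1 (752 TPM) lies among the 1W HFD libraries, WT 12W HFD replicates 2 and 3 lie highest (12000 and 10970 TPM), and KO 12W HFD replicate 2 lies far to the right (5687 TPM of markers) with 1198 TPM of class II.

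Markers of other antigen-presenting cells were measured too. In WT 12W HFD against 3W, 14.2% of all genes tested were called in either direction, and 7.94% were called higher. Of 10 dendritic cell markers, 5 were called higher in WT 12W HFD than in WT 3W libraries, with a sum of 47.7 to 82.4 TPM against 10.1 to 41.1 TPM. Itgax (CD11c) was among them (9.80 and 0 TPM on average), while Flt3, a receptor gene that defines dendritic cells, was at 0.75 TPM or less there, at up to 1.45 TPM in WT 3W libraries and at 0 in all KO 12W HFD and 1W HFD libraries. Of 10 B cell markers, all 8 tested were called higher in WT 12W HFD than in WT 3W libraries, with a sum of 104 to 1184 TPM against 2.73 to 28.1 TPM, with Ighm, the mu heavy chain gene, at 446 and 10.9 TPM on average. In the WT 6M libraries the B cell sum was 9910 TPM in replicate 1, above that library's macrophage sum of 3951 TPM, and 35.35 TPM in replicate 2. Of 12 T and NK cell markers, 10 were tested, 8 were called higher and 1, Lag3, lower. Of 10 endothelial markers 3 were called higher, of 9 mesothelial markers tested 0 were called, and of 10 markers of the sorted lineage and fibroblasts 1 was called higher and 4 lower, Tcf21 among them (-2.62 ± 0.35). The part of these cells in the class II levels was not tested.

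Among 38 other genes of the pathway, most calls in WT 12W HFD against 3W were of endosomal proteases and of the costimulation and interferon gamma lists. The interferon gamma list includes the myeloid factor Spi1. Of all genes tested, 14.2% were called in that comparison and 7.94% were called higher. Of 6 endosomal protease genes, 4 were called higher in WT 12W HFD than in WT 3W libraries. Ctss, the protease that trims the invariant chain in antigen-presenting cells, averaged 724 and 2.33 TPM (log2 change 7.93 ± 0.42). The others were Lgmn (3.08 ± 0.25), Ctsb (1.95 ± 0.19) and Sppl2a, which clears the last membrane fragment of Cd74 (0.89 ± 0.24). In KO 12W HFD against KO 3W libraries 3 of the 6 were called, Ctss (6.11 ± 0.59), Lgmn (3.54 ± 0.36) and Ctsb (1.91 ± 0.27). There 3.19% of all genes were called higher. Of 3 surface turnover genes, March1, the ubiquitin ligase that removes class II from the surface (2.42 ± 0.31), and Cd83, which opposes it (3.95 ± 0.42), were called higher in WT 12W HFD than in WT 3W libraries. Ctss averaged 679 ± 473 TPM in KO and 724 ± 360 TPM in WT libraries at 12W HFD (SD, n = 2 and 5; log2 change -0.13 ± 0.59, limma adjusted p = 1).

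In WT 12W HFD against 3W no partner of Ciita at the promoter was called, while several genes of the interferon gamma list were. The 7 Ciita partners at the promoter are the RFX subunits Rfx5, Rfxap and Rfxank, the NF-Y subunits Nfya, Nfyb and Nfyc, and Creb1. Of these 0 were called in WT 12W HFD against 3W, where 14.2% of all genes were called. Nfyc was called lower in WT 6M than in WT 3W libraries (-1.23 ± 0.22) and Rfxap lower in WT 1W HFD than in WT 3W libraries (-2.998 ± 0.74). In these comparisons 10.8% and 8.03% of all genes were called. Of all genes 7.94% were called higher in WT 12W HFD against 3W. Of 9 genes on the interferon gamma list, 4 were called higher there and 1 lower. The largest change was that of Spi1 (PU.1, 5.12 ± 0.40), a myeloid transcription factor and no signalling component. Ifngr1 (0.90 ± 0.22), Ifng itself (1.25 ± 0.32) and Ifngr2 (0.75 ± 0.24) were also higher. Irf1, a target of the pathway, was lower (-1.43 ± 0.36). Ifng reached at most 5.92 TPM in WT 12W HFD libraries and had 2.05 and 2.88 TPM in WT 6M libraries, against 0.09 TPM or less in WT 3W libraries.

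Of 5 genes on the costimulation list, 3 were called higher and 1 lower in WT 12W HFD against 3W, where 14.2% of all genes were called. Cd86 (3.00 ± 0.38), Cd80 (1.501 ± 0.37) and Cd274 (1.15 ± 0.28) were higher and Icosl was lower (-1.23 ± 0.33). Cd274 encodes PD-L1, a ligand that restrains T cells, and is no costimulator. Of 3 genes for Cd74 binding partners, Cd44, its coreceptor, was called higher (1.77 ± 0.29). Of 5 other class II chain genes in the tables, 3 were tested and 1, H2-DMb2, was called higher (2.80 ± 0.53). The median log2 change was 5.77 over the 7 class II genes in this comparison, beside -0.04 over all genes tested.

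Within groups, the correlation of a gene with the rest was highest for Cd74 and lowest for Ciita. Over the 29 libraries, after the group mean had been taken from each value on the log2(TPM + 1) scale, Pearson's r of each gene with the mean of the other 6 was 0.96 for Cd74, 0.94 for H2-Ab1, 0.89 for H2-Aa, 0.82 for H2-Eb1, 0.72 for H2-DMa, 0.596 for H2-DMb1 and 0.18 for Ciita. These are descriptions over libraries that share groups, and Ciita was under 1 TPM in most of them. The closest pair was Cd74 and H2-Ab1 (r = 0.95). Of 9616 other genes with a mean of at least 5 TPM, the 8 whose deviations were most like the mean of the 7 were Cd2 (r = 0.75), which is also on the T and NK cell list, Tmem160 (0.72), Coro1a (0.71), Fxyd2 (0.71), Cd209f (0.70), Psmb10 (0.68), Pf4 (0.68) and Yif1b (0.68).

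In the ATAC-seq data, which mark open chromatin, each MHC-encoded gene had a start with a peak in at least 8 of 9 libraries. A peak within 1 kb of a start was found in 9 of 9 libraries for H2-Eb1, H2-DMb1, H2-DMa and the RefSeq start of H2-Ab1, and in 8 of 9 for H2-Aa, where WT 3W replicate 3 had none. The deposited start of H2-Ab1 had a peak in 7 of 9 libraries, 1 of 3 at WT 3W, at ranks of 35.6% to 73.5% of each list, and the second RefSeq start of H2-DMa also had one in 7 of 9, 1 of 3 at WT 3W. With the better covered start where a gene had several, 50 of 63 pairs of gene and library had a peak. The background was the 16700 genes with a start among the RefSeq promoters, which do not include Cd74, Ciita or H2-Ab1. Starts from other sources were used for some of the 7 genes and not for the background. Of the background genes, 68.7% and 66.9% had a peak within 1 kb of a start in the KO 3W libraries. The share was 67.8%, 64.2% and 64.9% in the WT 3W libraries and 69% and 66.9% in the WT 1W HFD libraries. It was 67.7% and 67.1% in the WT 12W HFD libraries, and 62.2% had a peak in all 9. The peak at the RefSeq start of H2-Ab1 ranked in the top 9.56% to 29.6% of each list by −log10 q, and that at H2-DMb1 between 26.1% and 44.4%. The peak at H2-DMa was in the top 0.116% to 0.719% of every list, in a merged open region of 30613 bases that also covers the overlapping gene Brd2. The printed stretches of H2-Aa, H2-Eb1 and H2-DMb1 lie inside these 1 kb windows.

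Cd74 had peaks in more HFD than 3W libraries. Its start, and those of Ciita and H2-Ab1, were placed on the plus strand from general knowledge. A peak within 1 kb of its start was present in 1 of 2 KO 3W libraries (replicate 2, −log10 q of 2.28), 1 of 3 WT 3W libraries (replicate 1, 3.56) and 4 of 4 HFD libraries (strongest peak over or before the start 3.63 and 4.99 at 1W HFD, 7.48 and 6.31 at 12W HFD). Inside the gene, the merged region chr18:60804426-60807845 held peaks in all 4 HFD libraries, with −log10 q of at most 8.65 and 11.9 at 1W HFD and 12.2 and 9.42 at 12W HFD, and in none of the 5 3W libraries. It was the only 1 of 75 merged regions within 50 kb of the 7 genes with that pattern. Of all 123191 merged regions 1.15% showed it, which is close to 1 of 75. The pattern was thus about as frequent near these genes as elsewhere. The 3W lists held 55990 to 84876 peaks and the HFD lists 76321 to 93314, and the part of list length in this pattern was not tested. These peak values are the authors' own and serve only to rank peaks within a list.

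**Figure D5:**
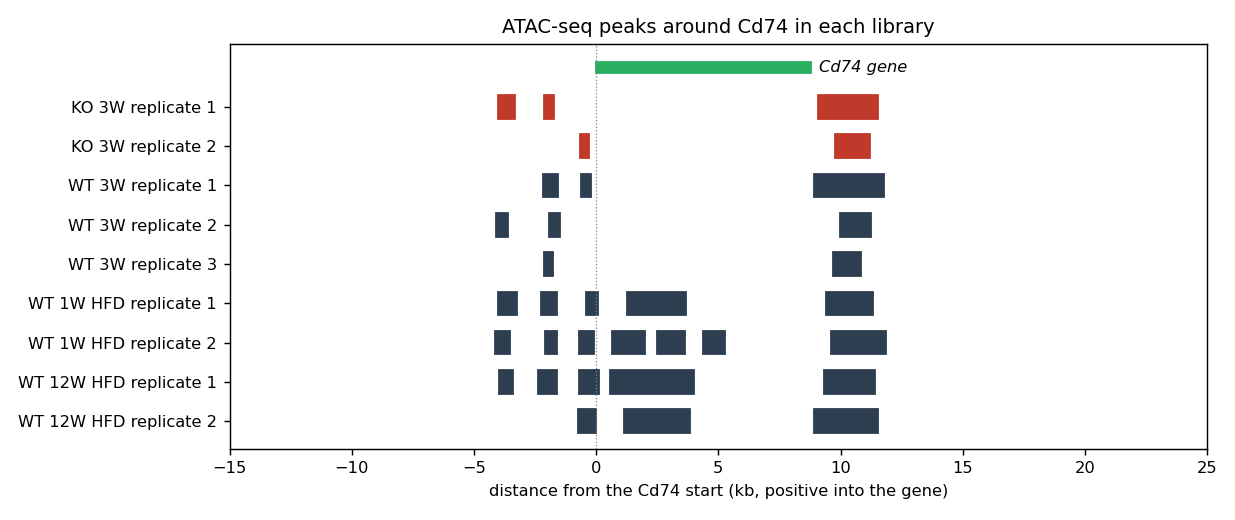
ATAC-seq peaks (boxes) of each library (1 line each, KO red and WT dark blue) by distance from the deposited start of Cd74 in kb (x axis, positive into the gene, gene in green). Peaks inside the gene appear in the 4 HFD libraries and in none of the 5 3W libraries, while a peak beyond the far end of the gene is present in all 9.

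Ciita had no peak within 1 kb of its deposited start in any of the 9 libraries. That was the only Ciita start examined, and possible starts elsewhere in the gene were not. A merged region inside the gene, chr16:10488913-10490107, had a peak in 2 of 2 KO 3W libraries, 1 of 3 WT 3W libraries and 3 of 4 HFD libraries. Of the 75 merged regions near the 7 genes, 22 had a peak in all 9 libraries, against 29% of all merged regions. Between genotypes at 3W, 3 of the 75 had a peak in both KO and no WT library (2.98% of all regions) and 1 in all 3 WT and no KO library (0.0503%). The peak names of 3 libraries, replicate 2 of KO 3W and replicates 2 and 3 of WT 3W, carry another letter than the rest, whose meaning is not stated. The region inside Cd74 had no peak in the 3W libraries of either letter. All HFD libraries carry the same letter, and the part of the letter in the Cd74 pattern was not tested.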

How the data were processed

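Gene expression was deposited by the authors as TPM per gene, in one table of WT and one of KO libraries. Per the submitters' processing notes the tools were Trim Galore 0.6, FastQC, STAR 2.5.3a, RSEM, Bowtie2 2.3 and MACS2, with build mm10. Columns summed to 918008 to 969385. ATAC-seq peaks, called per library per the deposited peak names, carry a score, a fold ratio to background, and −log10 p and q as deposited by the authors; scores and folds were not used.

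Groups came from the sample titles. Read in reverse order, the genotype field matched all 38 titles. The 15659 genes that reached 1 TPM in 2 or more libraries were fitted as log2(TPM + 1) with limma 3.58.1 (R 4.3.3), 8 group means over 29 libraries (21 residual degrees of freedom), eBayes with trend, two-sided, Benjamini-Hochberg adjustment over all genes tested, threshold 0.05. A log2 change on this scale understates changes of low genes. The fit was tested on simulated data. Peaks, regions and figures used Python 3.11.15 with pandas 2.3.3, numpy 2.4.6 and matplotlib 3.10.9. Of the other lists, the text names genes called in a comparison (at most 4 per list by adjusted p) and fixed defining genes. Ifngr2, Lag3, Wt1, Rfx5, Rfxank, Nfya, Nfyb, Creb1, H2-Ea-ps, Brd2 and Dexi are named beyond that rule, after their values were seen. The genes, lists and tests were chosen with earlier results of these data known. Alternatives were other pseudocounts, filters, scalings, samples in the fit, array weights, replicate blocks and leaving out each library. 1 B cell marker gene is not reported here.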

Additional observations from a re-analysis of the deposited data

How the results depend on the processing

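Of the values of single class II genes, 991 kept their direction and their side of the threshold when 1 library was left out and 838 did so under the other settings. There, 31 and 21 lost the threshold, 4 and 9 gained it, and 24 and 11 changed sign; no changed sign was of a called value. The cause of these changes was not tested.

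The number of the 7 genes called moved as follows. In WT 12W HFD against 1W HFD, 3 were called with a pseudocount of 0.1, 3 with no filter on low values and 1 without WT 12W HFD replicates 2 and 3, a setting chosen after seeing the data. In KO 12W HFD against 3W, 1 was called with the pseudocount of 0.1, 1 with no filter and 5 with array weights, which also gave 1 in KO 1W HFD against 3W. With 1 library left out the counts ran from 2 to 6 in WT 12W HFD against 1W HFD, 0 to 5 in KO 12W HFD against 3W, 0 to 1 in KO 1W HFD against 3W (1 without KO 3W replicate 1), 4 to 5 in WT 1W HFD against 3W, 5 to 6 in WT 6M against 3W and 7 to 7 in WT 12W HFD against 3W, and were 0 in the other comparisons. Each gene had 1 residual spread shared by the groups of a fit. A group of 2 libraries, or of 1 after a library was left out, was thus assumed to vary like the others. Within 10 kb in place of 50 kb of the genes, 34 merged ATAC-seq regions were found in place of 75.

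The following log2 changes changed sign. For WT 12W HFD against 6M, median-ratio scaling gave Cd74 -0.116 and H2-Ab1 -0.206, and leaving out WT 12W HFD replicates 2 and 3 gave Cd74 -0.699, H2-Aa -0.229, H2-Ab1 -0.797 and H2-DMa -0.429. That last setting gave Ciita -0.177 in WT 12W HFD against 1W HFD and 0.261 for its KO effect at 12W HFD against 1W HFD. Quantile normalization gave Ciita -0.007 in WT 3W against P12, and array weights gave H2-DMb1 -0.075 in KO against WT at 3W and Ciita -0.001 in KO 1W HFD against 3W. With 1 library left out, WT 12W HFD against 6M ran from -0.43 to 0.7 for Cd74, -0.073 to 0.894 for H2-Aa, -0.286 to 0.39 for H2-Ab1 and -0.229 to 0.78 for H2-DMa. H2-DMb1 ran from -0.036 to 0.701 in KO against WT at 3W, and H2-DMa from -1.052 to 1.594 in WT 3W against P12. KO 12W HFD against 1W HFD ran from -0.359 to 0.875 for H2-Eb1, -0.179 to 0.8 for H2-Ab1 and -0.244 to 0.411 for Ciita. Ciita ran from -0.207 to 0.253 in KO 1W HFD against 3W, -0.221 to 0.434 in KO 12W HFD against 3W, -0.13 to 0.66 in WT 6M against 3W and -0.603 to 0.051 for the KO effect at 12W HFD against 1W HFD.

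The titles of 3W libraries name 5 pairs of KO and WT libraries, 1 of them with 2 WT libraries, and do not say what a pair shares. With the pair number at 3W and the replicate number on HFD as a replicate block, 0 of the 7 genes were called in KO against WT at each stage, and the log2 change of Cd74 was 2.31 ± 0.65 at 3W (limma adjusted p = 0.637), 0.68 ± 1.10 at 1W HFD and -2.06 ± 1.10 at 12W HFD. Deviations from the group means correlated at 0.178 to 0.482 in 5 of 6 KO and WT combinations of the same pair at 3W and at -0.131 in the other, which involves KO 3W replicate 3 and WT 3W replicate 5, and at -0.185 to 0.077 between same-numbered libraries on HFD. Not every value was over 0.1, so the fit without the block was kept. Read depth is unknown, so no counting error can be given for low genes such as Ciita.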
